A study of Mus musculus with 96 samples.

Results

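The genes described here handle heme once it has been made: the heme oxygenases Hmox1 and Hmox2, the biliverdin reductases Blvra and Blvrb, the exporter Abcg2, and the trafficking proteins Slc48a1 and Pgrmc1. They are 7 chosen genes among 24321 gene symbols, all 7 were measured, and they are followed in single cells along the level of Hba-a1, an alpha-globin gene. RNA came from 96 single marrow cells of C57BL/6 mice with the genotype Rpl11 +/lox, which the series describes as haploinsufficient for this large-subunit ribosomal protein gene. The labels call every cell an erythroid precursor, and the series describes stages from the burst-forming unit-erythroid to the basophilic erythroblast. Single cells were isolated with Fluidigm C1 chips, and SMART-Seq chemistry amplified their cDNA. All cells carry 1 group label, no animal and no Cre driver is named, and wild-type cells were not analysed here. The cells therefore count as 1 sample, every value below is a description of these cells, and no test was run.

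Heme is made in erythroid mitochondria for hemoglobin, and free heme that globin has not bound is toxic. Heme oxygenases open the ring to biliverdin, iron and carbon monoxide, and biliverdin reductases turn biliverdin into bilirubin. HMOX1 is known as the inducible oxygenase, released from the repressor BACH1 when heme is high, while HMOX2 is the constitutive form. ABCG2 exports porphyrins and heme from the cell, SLC48A1 moves heme out of the lysosome, and PGRMC1 binds heme and interacts with ferrochelatase, the last enzyme of heme synthesis. In ribosomal protein deficiency, globin translation is known to lag behind heme synthesis, which can leave an excess of heme in early erythroblasts. The comparison here asks how transcripts of the genes that remove or move heme were distributed as globin transcripts accumulated.

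Of 96 cells, 69 had at least 1000 genes at 1 RPKM or more (reads per kilobase of transcript and 1000000 mapped reads), and 13 of these met a marker list of another blood lineage and were set aside. The remaining 56 kept cells had 1003 to 5507 genes with a median of 1939.5, and an estimated depth of 1530840 to 11655900 reads with a median of 6981975. They were split at 10000, 100000 and 300000 RPKM of Hba-a1 into 4 ranges called low (4 cells), middle (4 cells), high (11 cells) and highest (37 cells), which are ranges of a gradient and not cell types. Only 3 cells lay within 10% of an edge. In 54 of the 56 cells, 13 to 21 of 21 erythroblast markers were at 10 RPKM or more. The other 2 cells, both in the low range, had 7 such markers and some neutrophil and monocyte markers, and they are the first 2 wherever the low cells are given in rising order of Hba-a1. Rpl11 itself was listed in 39 of 56 kept cells, which checks no label without wild-type cells. The sample descriptions carry 3 codes, called runs here, with 14, 16 and 26 kept cells, and the middle range held cells of only 2 of them. The titles of all 96 samples carry 1 code, so whether the 3 codes mark separate runs is not settled, and the calls and within-run values below rest on them.

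Globin-rich cells listed far fewer genes, a change that touches all results below. The median number of genes was 4452.5 in the low, 4180 in the middle, 3016 in the high and 1551 in the highest range. Globin transcripts made up a median of 1.68%, 23.6%, 64.4% and 89.3% of the summed RPKM in the low, middle, high and highest ranges. Estimated depth did not decline with it, with medians of 5175740, 5651685, 6839860 and 7524340 reads in the same order. The Spearman correlation of Hba-a1 with the number of genes was -0.94 over 56 cells, and 92.8% of the 4329 genes listed in at least 10 kept cells had a correlation below 0 with Hba-a1.

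**Figure D1:**
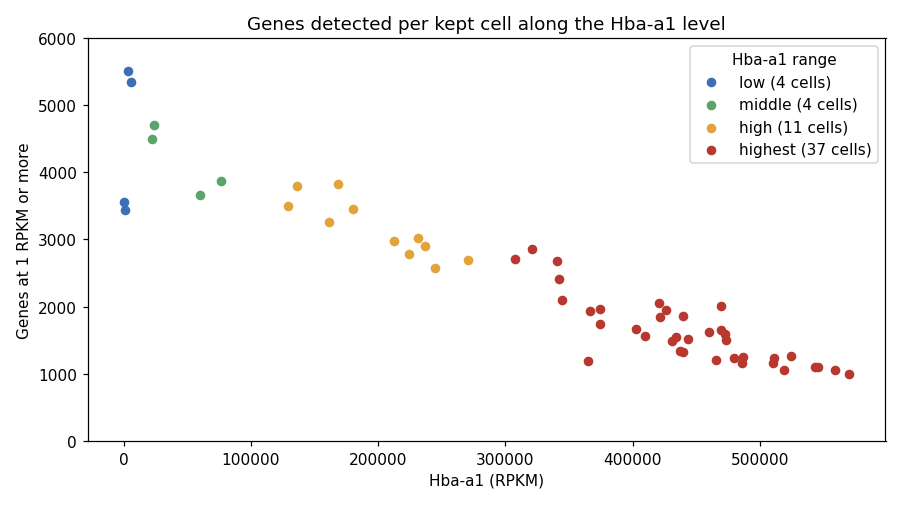
Genes at 1 RPKM or more in each kept cell (y axis) against Hba-a1 in RPKM (x axis), 1 point per cell, coloured by Hba-a1 range. The 4 middle cells listed 3664 to 4700 genes and the 37 highest cells 1003 to 2860.

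Blvrb was the dominant transcript of the set. It reached 1 RPKM in 55 of 56 kept cells (98.2%, exact Clopper-Pearson 95% interval 90.4% to 99.95%, which covers counting error only), with a median of 1788 RPKM. It was the highest of the 7 genes in 53 of 56 cells and made up a median of 88.1% of their summed RPKM. Among 24310 non-globin symbols its median rank within a cell was 23. RPKM is already per length, so levels of different genes can be set side by side. By median RPKM over the kept cells Blvrb was followed by Abcg2 at 99.8, Blvra at 50.7 and Slc48a1 at 29.1, whereas Hmox1, Hmox2 and Pgrmc1 had medians of 0. The cell-to-cell ranges of Abcg2 (0 to 615 RPKM), Blvra (0 to 311 RPKM) and Slc48a1 (0 to 147 RPKM) overlapped widely, so the order among these 3 lies within their spread.

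**Figure D2:**
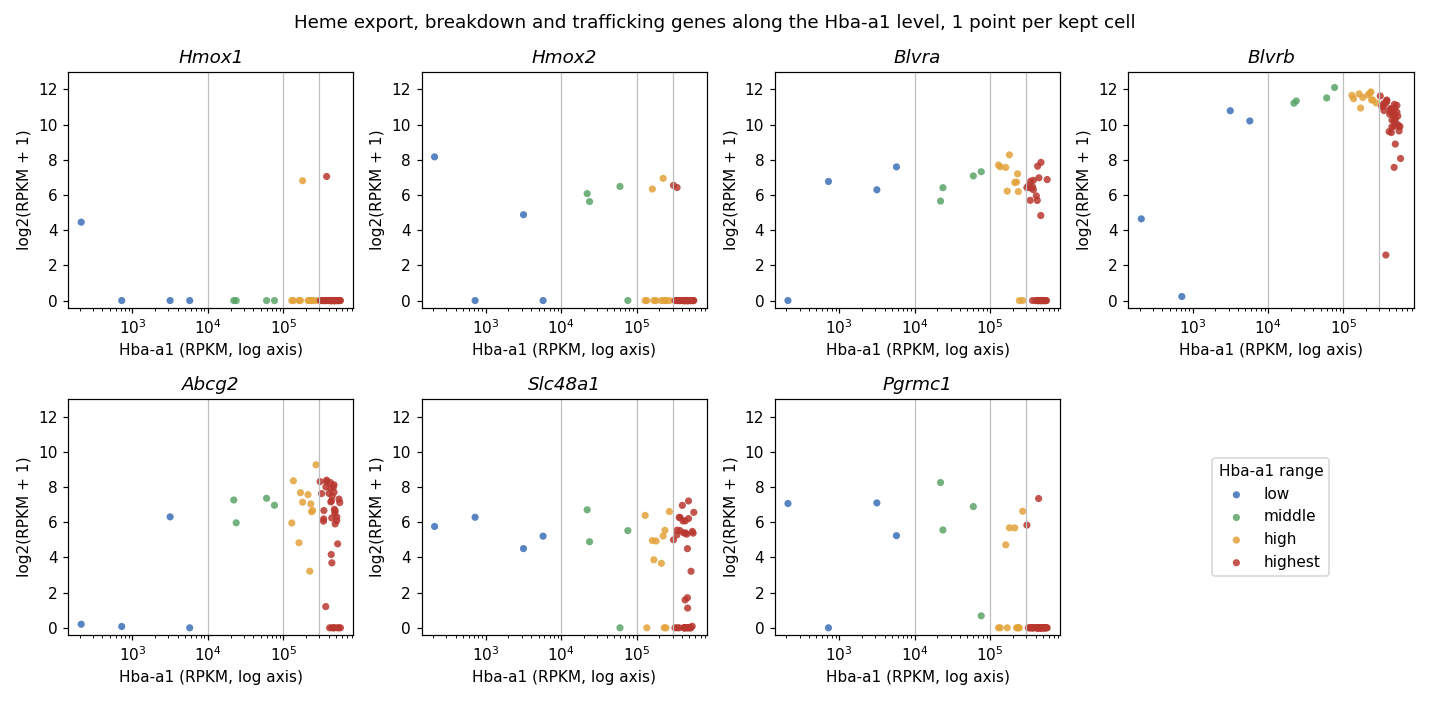
Level of each gene as log2(RPKM + 1) (y axes) against Hba-a1 in RPKM on a log axis (x axes), 1 point per kept cell, with grey lines at the range edges. Blvrb is high in nearly all cells, whereas Hmox1 was listed in 3 of 56 and Hmox2 in 9 of 56.

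The oxygenase genes were rarely seen. Hmox1 was listed in 3 of 56 kept cells (5.36%, 1.12% to 14.9%), at 20.9 RPKM in a low cell, 111 RPKM in a high cell and 132 RPKM in a highest cell. In the other 53 cells it was exactly 0, where a floor of 3 reads stands at 0.27 RPKM at the median depth and 1.25 RPKM at the lowest depth, counting error only. Loss of molecules before amplification was not measured. Each of the 3 cells rested on an estimated 175 to 855 reads. The low cell is 1 of the 2 with few erythroblast markers, and it was the only kept cell in which Hmox1 and Hmox2 were listed together.

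Because macrophages that recycle red cells are known to be rich in Hmox1, their markers were read in the same cells. Of 11 measured markers, no kept cell had more than 1 at 1 RPKM or more, and their summed RPKM had a median of 0 and a highest value of 58.5. Spic and Cd163 were listed in 0 of 56 cells and Vcam1 in 1 cell. The 3 Hmox1 cells had 0, 1 and 0 of these markers, with summed levels of 0, 50.5 and 0 RPKM. The cell with 50.5 RPKM lies near the highest sum of any kept cell, and the part of such RNA in its Hmox1 level was not tested.

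Hmox2 was listed in 9 of 56 kept cells (16.1%, 7.62% to 28.3%). The 4 low cells had 286, 0, 28.4 and 0 RPKM in rising order of Hba-a1, and the 4 middle cells had 66.6, 48.4, 88.7 and 0 RPKM. In the high range 2 of 11 cells listed it, at 80.0 and 122 RPKM. In the highest range it was listed in 2 of 37 cells (5.41%, 0.66% to 18.2%), at 85.0 and 92.7 RPKM. Cells that listed Hmox2 were thus fewer at high globin, while their levels lay within the 28.4 to 286 RPKM of the low and middle cells that listed it. The 286 RPKM came from a low cell with few erythroblast markers. Without that cell the span was 28.4 to 88.7 RPKM. The values of 80.0 and 85.0 RPKM then lay within it and those of 92.7 and 122 RPKM above it. Both highest-range cells that listed Hmox2 lay below the median Hba-a1 of that range, and 0 of the 19 cells at or above that median listed it, which allows a share of up to 17.6% by the exact interval.

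Blvrb, whose product is also known as flavin reductase, was high in most erythroid cells of every range. The 2 low cells with few erythroblast markers had 24.0 and 0.17 RPKM, and the other 2 low cells had 1770 and 1183 RPKM. The middle cells had 2380, 2606, 2934 and 4422 RPKM in rising order of Hba-a1. The values therefore climbed to a peak in the cell with the highest Hba-a1 of the middle range, a single cell. In the high range the lowest, median and highest values were 1966, 2995 and 3708 RPKM, and in the highest range 5.01, 1607 and 3167 RPKM. The lowest value of the highest range came from the kept cell with the lowest estimated depth, 1530840 reads. In the highest range 33 of 37 cells lay below the lowest middle cell, so the ranges overlapped in 4 cells. The mean log2 level was 10.19 ± 1.55 in the highest range (SD over 37 cells) and 11.55 ± 0.39 in the middle range (4 cells), a difference of -1.36.

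Blvra, the other biliverdin reductase, was listed in a smaller share of the globin-rich cells. The low cells had 0, 108, 77.5 and 193 RPKM in rising order of Hba-a1, and the middle cells had 49.4, 84.4, 135 and 159 RPKM. It was listed in 9 of 11 high cells, with a median of 106 RPKM and a maximum of 311 RPKM. In the highest range it was listed in 15 of 37 cells (40.5%, 24.8% to 57.9%), with a median of 0 and a maximum of 230 RPKM. Cells that still listed it had a median of 87.2 RPKM there, against 110 RPKM in the middle range, so the difference lay mostly in how many cells listed the gene. Within the highest range 11 of 18 cells below the median Hba-a1 listed Blvra, and 4 of 19 at or above it did. In the 3 runs 4 of 9, 3 of 8 and 8 of 20 highest cells listed it. The mean log2 level was 2.63 ± 3.26 in the highest range and 6.62 ± 0.75 in the middle range, a difference of -3.99.

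In the 30 cells that listed both reductase genes, the RPKM of Blvrb was a median of 25.3 times that of Blvra (2.31 to 48.2). Blvrb was listed without Blvra in 25 cells and Blvra without Blvrb in 1 cell, which was a low cell with few erythroblast markers. To show the sequence around these starts, the 250 bases before the RefSeq start of each reductase gene follow, from the RefSeq promoter table on GRCm38.p6, a later build than the mm9 of the values. The windows are chr2:127070407-127070656 for Blvra and chr7:27447728-27447977 for Blvrb, both on the plus strand, and capitals mark matches on either strand to GATAA, TGANNNNGC or CCNCNCCC.

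Blvra: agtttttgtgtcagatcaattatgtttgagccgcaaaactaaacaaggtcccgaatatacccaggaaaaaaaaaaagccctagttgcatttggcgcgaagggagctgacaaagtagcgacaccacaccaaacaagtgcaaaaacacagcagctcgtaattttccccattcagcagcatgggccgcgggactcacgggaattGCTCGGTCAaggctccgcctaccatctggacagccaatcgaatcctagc

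Blvrb: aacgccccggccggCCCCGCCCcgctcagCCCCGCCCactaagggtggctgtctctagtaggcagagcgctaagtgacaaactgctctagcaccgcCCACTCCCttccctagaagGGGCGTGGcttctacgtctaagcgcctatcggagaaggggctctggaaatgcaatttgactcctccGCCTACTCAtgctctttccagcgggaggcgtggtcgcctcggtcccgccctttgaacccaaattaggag

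The letters CCNCNCCC, a pattern of KLF factors, matched 4 times in this Blvrb window, 0 times in a window before another Blvrb start and 0 times before Blvra, and were present in 45.9% of 32851 promoter windows of the same length. TGANNNNGC, a core shared by elements of BACH1 and NRF2, had 1 match in each printed window and was present in 35.2% of all windows. GATAA, the core bound by GATA factors, matched in neither printed window and was present in 22.6% of all windows. These counts describe letters only. Of the 7 genes 5 were matched in the promoter table, and Hmox1 and Slc48a1 are named only.

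The exporter gene Abcg2 was listed in 46 of 56 kept cells (82.1%, 69.6% to 91.1%), among them 1 of the 4 low cells. The low cells had 0.15, 0.054, 78.2 and 0 RPKM in rising order of Hba-a1, and the middle cells had 153, 61.6, 164 and 124 RPKM. All 11 high cells listed it, from 8.31 through a median of 131 to 615 RPKM, the highest level of the set outside Blvrb. In the highest range 30 of 37 cells listed it (81.1%, 64.8% to 92.0%), with a median of 99.0 and a maximum of 335 RPKM. Of the 37 highest cells, 12 lay below the lowest middle cell and 25 at or above it, some of them above the highest middle cell. In cells that listed it the median was 140 RPKM in the highest range and 138 RPKM in the middle range. The mean log2 level was 5.45 ± 3.03 in the highest range and 6.89 ± 0.64 in the middle range, a difference of -1.44. Without the run with 14 kept cells the difference was -0.065. That left 1 middle cell, at 61.6 RPKM, so dependence on the run cannot be judged.

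The lysosomal heme transporter gene Slc48a1 was spread over all ranges with little trend. It was listed in 37 of 56 kept cells (66.1%, 52.2% to 78.2%). The low cells had 53.2, 76.9, 21.7 and 36.0 RPKM in rising order of Hba-a1, and the middle cells had 104, 28.7, 0 and 45.0 RPKM. It was listed in 8 of 11 high cells with a median of 29.6 RPKM and in 22 of 37 highest cells (59.5%, 42.1% to 75.2%) with a median of 8.27 RPKM. In cells that listed it the median was 42.3 RPKM in the highest range and 45.0 RPKM in the middle range. Its mean log2 level was 3.03 ± 2.85 in the highest range and 4.28 ± 2.95 in the middle range, a difference of -1.25, smaller than the SD over cells in either range.

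Pgrmc1 was listed mainly in kept cells with less globin. The low cells had 133, 0, 136 and 36.7 RPKM in rising order of Hba-a1, and the middle cells had 305, 46.2, 118 and 0.60 RPKM. It was listed in 4 of 11 high cells, at 25.3 to 97.7 RPKM. In the highest range it was listed in 2 of 37 cells (5.41%, 0.66% to 18.2%), at 56.2 and 162 RPKM, and the other 35 cells lay below the lowest middle cell. The mean log2 level was 0.36 ± 1.52 in the highest range and 5.35 ± 3.30 in the middle range, a difference of -4.99.

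**Figure D3:**
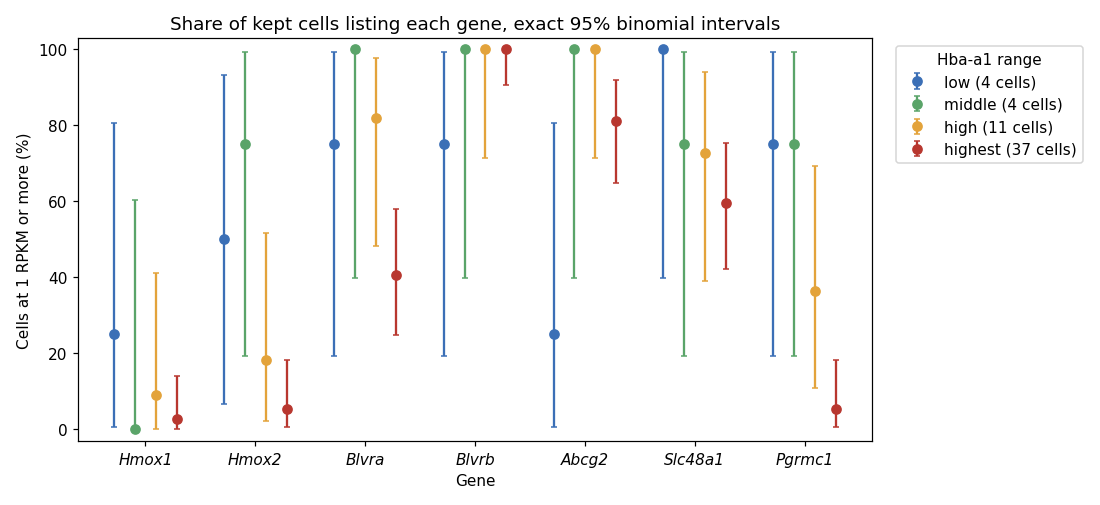
Share of kept cells at 1 RPKM or more (y axis, percent) for each gene (x axis), by Hba-a1 range, with exact 95% binomial intervals for counting error as bars. The share for Pgrmc1 was 5.41% in the highest and 75.0% in the middle range, whereas Blvrb was at 100% in both.

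Set against all genes, the differences of the set were not unusual in direction. Over the 4329 genes listed in at least 10 kept cells, 73% were lower in the highest range than in the middle range by at least 1 on the log2 scale, with the same direction in the only run with 3 cells in both, and 3.7% were higher. Of the 7 genes 5 passed that filter, leaving out Hmox1 and Hmox2, and all 5 were lower. Their median difference was -1.44, against -2.45 over all genes tested. Relative to this median Slc48a1 stood 1.20 higher, Blvrb 1.09 higher and Abcg2 1.01 higher, and Blvra differed by -1.54 and Pgrmc1 by -2.54. In the fuller comparison of the highest with the high range, which was added after the data were seen, 61% of genes were lower and 0.97% higher, and 4 of the 5 were lower and 0 higher. The differences there were -3.21 for Blvra, -1.71 for Pgrmc1, -1.33 for Blvrb, -1.30 for Abcg2 and -0.71 for Slc48a1, with a median of -1.52 over all genes. Within the 3 runs, in ascending order of kept cells, Blvra differed by -3.75, -2.96 and -3.28 between these ranges, Blvrb by -2.49, -0.87 and -1.06, and Pgrmc1 by -2.84, -0.025 and -2.79. Abcg2 differed by -1.34, -0.48 and -2.03, and Slc48a1, whose sign was not the same in all 3 runs, by -2.15, -0.36 and 0.17. These runs held 2, 5 and 4 high cells.

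The values moved with the share taken by globin. With globin genes left out and each cell rescaled to a total of 1000000, Blvrb differed by -0.098 between the highest and middle ranges, Slc48a1 by -0.55 and Abcg2 by -0.52, so that none of the 3 reached 1. Blvra (-3.76) and Pgrmc1 (-5.17) kept theirs. In this scaling 68.1% of all genes were lower and 7.07% higher, and 2 of the 5 tested members were lower. Against the high range without globin, 56.9% of all genes were lower and 2.4% higher, and 1 of the 5, Blvra, was called lower. Pgrmc1 was not called there, although its difference was -1.88 without globin and -1.71 as deposited. Rescaling with globin kept in moved the other way, to -2.92 for Blvrb, -2.62 for Abcg2 and -2.12 for Slc48a1, with 79.3% of all genes lower, 1.09% higher and all 5 members lower. Against the high range this rescaling gave 62.4% lower and 0.3% higher, with 4 of the 5 members lower. The differences also changed with the minimum number of genes per cell. Number of genes and Hba-a1 had a Spearman correlation of -0.94, so the 2 cannot be told apart here. In cells with at least 2000 genes, where 7 highest and 4 middle cells were left, Blvra differed by -1.38, Blvrb by -0.59, Slc48a1 by -0.61 and Abcg2 by 0.37. In the same cells Pgrmc1 differed by -4.51 and Hmox2 by -2.69. With no gene minimum, where 46 highest and 12 middle cells entered, the sign turned for Blvrb (4.55) and Abcg2 (2.26). The part of the number of detected genes in the lower shares of Blvra and Hmox2 was not tested.

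**Figure D4:**
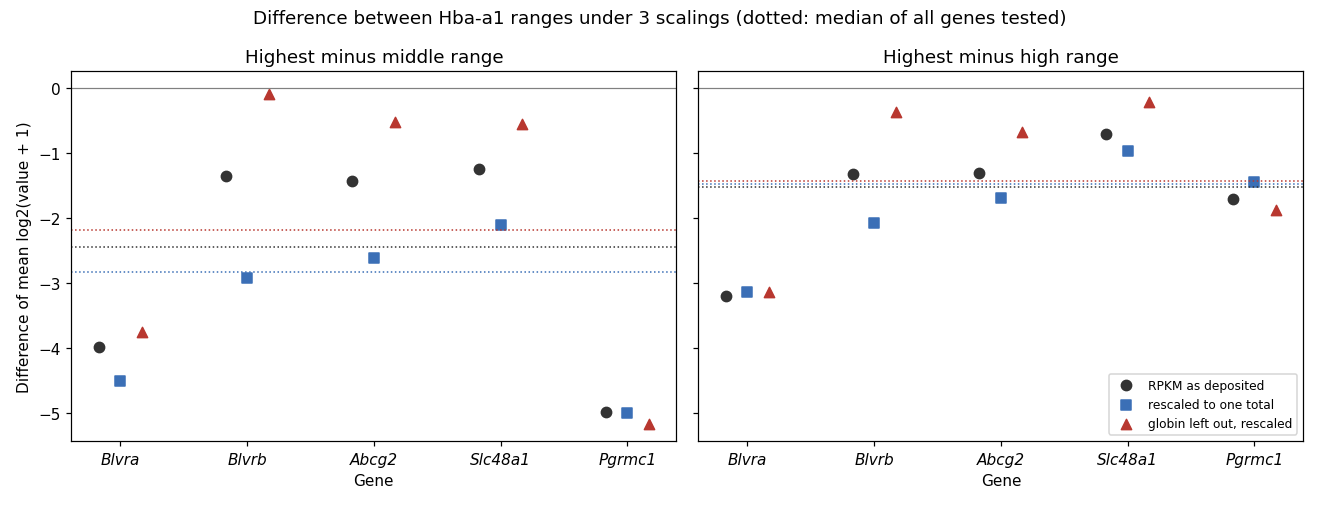
Difference of mean log2(value + 1) between the highest and the middle range (left) and the highest and the high range (right) for the 5 genes listed in at least 10 kept cells, under 3 scalings, with dotted lines at the median of all genes tested. On the left, Blvrb stood at -0.098 without globin and at -1.36 as deposited, and Blvra at -3.76 and -3.99.

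Along the route of heme breakdown, a reductase gene was listed far more often than an oxygenase gene, mainly through Blvrb. All 56 kept cells listed a reductase gene, whereas 11 (19.6%, 10.2% to 32.4%) listed an oxygenase gene. Either reductase gene counted here: Blvrb was listed in 55 kept cells, and Blvra in 31, among them 15 of the 37 highest cells. An oxygenase gene was listed in 2 of 4 low, 3 of 4 middle, 3 of 11 high and 3 of 37 highest cells. A cell listed a median of 4.5 of the 7 genes in the low range, 5.5 in the middle, 4 in the high and 3 in the highest range, beside medians of 4452.5, 4180, 3016 and 1551 genes in all.

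The 13 set-aside cells, most of which met the monocyte or macrophage list, showed a different mix. They listed Hmox2 in 8 of 13 cells (61.5%, 31.6% to 86.1%) and Hmox1 in 0 of 13, against 9 and 3 of the 56 kept cells. Blvrb was listed in 3 of 13 set-aside cells (23.1%, 5.04% to 53.8%), with a maximum of 448 RPKM in the cell that met the basophil or mast cell list. Blvra was listed in 8 of 13 and Slc48a1 in 9 of 13, and Abcg2 in 5 of 13 with a maximum of 86.1 RPKM. The kept cells with the least globin listed Hmox2 at a like share, in 2 of 4 low and 3 of 4 middle cells. Without the 2 low cells that had few erythroblast markers, 1 of 2 low cells listed it.

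Genes whose level over the 56 kept cells was most like that of a member were sought among 2341 genes listed in at least 20 of them, by Spearman correlation of log2(RPKM + 1). The cells share runs, depth and the share of reads taken by globin, so these values are descriptions. Blvrb was closest to Fth1, the ferritin heavy chain that stores iron (0.86), Tmem14c, a mitochondrial porphyrin transporter (0.85), and Atpif1, an inhibitor of mitochondrial ATP synthase (0.80). Blvra was closest to Siva1 (0.72), Lsm2, an Sm-like protein that binds U6 RNA (0.71), and Exosc2, a subunit of the RNA exosome (0.71). Genes similar to Abcg2 included Ccnb1, a mitotic cyclin (0.48), and Tfrc, the transferrin receptor (0.48). Slc48a1 was closest to Serinc3 (0.50), Ifi35 (0.45) and 0610039K10Rik (0.43). Between members listed in at least 20 kept cells the values were 0.58 for Blvrb with Blvra and 0.35 for Blvrb with Abcg2. Slc48a1 had values of 0.094 with Blvra, 0.055 with Abcg2 and -0.053 with Blvrb. With Hba-a1 itself the correlations over kept cells were -0.57 for Pgrmc1, -0.55 for Blvra, -0.51 for Blvrb, -0.49 for Hmox2, -0.21 for Hmox1, -0.16 for Slc48a1 and -0.13 for Abcg2, against a median of -0.45 over all genes tested. Pearson's r had the other sign for Blvrb (0.43) and Abcg2 (0.26), and without globin the Spearman correlation of Blvrb was 0.17.

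Genes around the route gave a mixed picture between the highest and middle ranges. Of 12 tested heme synthesis genes of 14, 4 were lower and 1 was higher, and their median was -0.92, against 73% lower and a median of -2.45 over all genes tested. These counts depended on scaling, as did those over all genes. Without globin 3 of the 12 were called lower and 3 higher, beside 68.1% and 7.07% of all genes. The list median in that scaling was 0.20, and the median over all genes tested was -2.19. Rescaling with globin kept in gave 10 called lower and 1 higher, beside 79.3% and 1.09% of all genes. There the list median was -2.04, against -2.83 over all genes tested. Alas2, the enzyme of the committed step in erythroid cells, was higher by 3.79, with a mean log2 level of 9.06 in the highest and 5.27 in the middle range, where 1 of the 4 cells was at 0. Against the high range Alas2 differed by 0.53 and was not called. Fech, ferrochelatase, differed by 0.049 between the highest and middle ranges. The lower genes were Tmem14c (-3.74), the mitochondrial glycine carrier Slc25a38 (-3.72), the synthase Uros (-2.12) and, named after its value was seen, the dehydratase Alad (-1.36). Of 10 tested genes of 17 in the list of BACH1 and NRF2 factors and targets, 5 were lower and 0 higher, and their median was -0.98, again beside 73% lower and a median of -2.45 over all genes. Without globin 3 were lower and 1 higher, beside 68.1% of all genes lower. The 5 lower genes were Nfe2l2, which encodes NRF2 (-2.45), the quinone reductase gene Nqo1 (-2.18), Fth1 (-1.32), the glutathione synthesis gene Gclc (-1.25) and, named after its value was seen, the cystine transporter gene Slc7a11 (-1.06). Nfe2l2 was listed in 22, Nqo1 in 23 and Gclc in 27 of 56 cells, so these differences rest on few cells, whereas Fth1 was listed in all 56. Against the high range 2 of the 10, Gclc (-3.38) and Fth1 (-1.31), were lower, beside 61% of all genes. Nfe2l2 differed there by -0.34 and Nqo1 by 0.79. Of 11 other heme binding and trafficking genes only 3 passed the filter, and Gapdh, a glycolytic enzyme that also carries heme, was lower by the rule (-6.38), as was Pgrmc2 (-1.27). All 11 globin genes were higher, among them Hba-a1, which defined the ranges. Hba-a2 had nearly the same difference as Hba-a1 (3.48), and Hbb-b2 and Hbb-bt had the same value (3.76). The 11 are therefore not separate observations. Eif2ak1, the heme-regulated kinase, differed by 0.37, and by 1.33 without globin. Against the high range it differed by -0.36, and by 0.36 without globin, and was called in neither.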

How the data were processed

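Gene values are the deposited RPKM, which the authors made per transcript. Alignment used TopHat2 2.0.9 with mm9, per the submitters' processing notes, and the quantification tool is not given in the sources used here. For each symbol the highest transcript was taken as the gene value and analysed as log2(RPKM + 1) from the deposited values. Cells with under 1000 genes at 1 RPKM were left out, and cells with at least 3 markers and 50% of the markers of another lineage at 10 RPKM were set aside. Depth was estimated from the spacing of low values. A median of 63.0% of these lay within 0.06 of a whole number of reads, so depths and read numbers are approximate. Reads could also not be told from read pairs. Differences are means over cells. A gene was called at a difference of 1 with the same direction in each run with at least 3 cells in both ranges. All 7 genes are named, with up to 4 called genes of each pathway list and the 3 genes most similar to each member listed in at least 20 cells, except 1 gene that is not reported here. The genes and lists were chosen with earlier results of these data known. Python 3.11.15, pandas 2.3.3 and scipy 1.17.1 were used, and the calculation was tested on simulated data.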

Additional observations from a re-analysis of the deposited data

Results flagged for a closer look

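Blvrb reached 1 RPKM in 13 of the 27 cells left out for having under 1000 genes (48.1%, 28.7% to 68.1%), a signal in cells that the comparisons above used only where no gene minimum was set. In the same cells Abcg2 was listed in 5 and Slc48a1 in 8, while Hmox1, Hmox2, Blvra and Pgrmc1 were listed in 0, which allows a share of up to 12.8% for each by the exact interval. The highest Slc48a1 value there, 2746 RPKM, came from a cell with only 53 genes and no depth estimate. It cannot be set against the highest value of 147 RPKM in kept cells. Of the 8 cells that listed Slc48a1, 3 were at 10 RPKM or more.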

How the results depend on the processing

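No paired analysis was possible because the cells form 1 group. Between the highest and middle ranges, 5 members were lower and 0 were higher, and their median was -1.44. The number lower was 3 with a pseudocount of 10, 2 without globin, 0 with no gene minimum and 2 with at least 2000 genes. It was 3 with edges at 5000, 50000 and 200000, and 1 against the high range without globin. Without the run with 14 kept cells it was 2, with 1 middle cell left. Over all genes tested, 73% were lower as deposited, 68.1% without globin and 56.9% against the high range without globin. The share over all genes is not given for the other settings listed here. The number of members higher was 1 with no gene minimum and 1 with the lower edges. The median over members was -2.09 with a pseudocount of 0.1, -2.92 rescaled to the total, -0.55 without globin and -0.093 with no gene minimum. It was -0.61 with at least 2000 genes, -2.51 with the lower edges and -0.68 against the high range without globin. With no cell set aside it was -2.71, because Hmox2 (-4.20) then passed the filter and 6 members were lower. No member's own difference changed in that setting. The sign turned for Blvrb (4.55) and Abcg2 (2.26) with no gene minimum, and for Abcg2 with at least 2000 genes (0.37) and with the lower edges (1.22). The cause was not tested. Blvra, Hmox2, Slc48a1 and Pgrmc1 stayed below 0 in all 18 settings, but some of these could not move the values. Leaving out the filter on low values or the run codes affects only the calls. Other settings used the high range in place of the middle. Cells with a reductase alone numbered 16 with at least 2000 genes, against 45, and cells with both enzymes 18 with no cell set aside, against 11. The middle range holds 4 cells, which limits every difference from it.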
